A study of Mus musculus with 10 samples.

Results

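Ribosome footprints of 8 genes known for upper-layer and callosal neurons were followed through neocortical development up to birth. The genes were chosen by name, as the rows of the footprint count table whose Ensembl identifier carries the symbol Cux1, Cux2, Pou3f1, Pou3f2, Pou3f3, Rorb, Mdga1 or Mef2c. They are 8 of the 22373 genes in the table, and all 8 were among the 13484 genes that passed the filter on low counts and were tested. Of these 8, 7 encode transcription factors, while Mdga1 encodes a cell adhesion protein anchored in the membrane by a lipid. The libraries came from wild-type CD-1 mice, with 2 libraries at each of 5 stages: the embryonic days E12.5, E14, E15.5 and E17, and the day of birth, P0. The only treatment in the labels is the digestion of the lysate. Each library was a pool of neocortex from timed litters with both sexes mixed, so a replicate was a pool and not a single animal. In all 10 libraries the lysate was digested with RNAse-T1 and RNAse-A before the ribosome-protected mRNA fragments were sequenced.

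The neocortex is built from the inside out: progenitors lining the ventricle first produce the neurons of the deep layers and later those of layers II to IV. Many upper-layer neurons send axons across the corpus callosum to the other hemisphere. CUX1 and CUX2 are homeodomain proteins that mark these layers and act in dendrite branching and synapse formation, POU3F1, POU3F2 and POU3F3 are POU domain factors with overlapping roles in the production and migration of upper-layer neurons, and RORB is a nuclear receptor typical of layer IV. MEF2C is a MADS box factor that acts in neuronal maturation and in the control of synapse number, and MDGA1 binds neuroligins and limits their pairing with neurexins at synapses. Ribosome footprints count the ribosomes sitting on a gene's mRNA, so a level here reflects mRNA amount and ribosome loading together. In a tissue lysate, fewer cells of a type and less RNA per cell cannot be told apart.

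The libraries held 7544404 to 36129988 footprints, and a member had between 43 and 134770 counts in a library. Levels are given in CPM, the counts a gene would have if every library held the same fixed total, scaled by TMM factors that bring the bulk of genes to a common level between libraries. They are not divided by gene length, so they compare stages for one gene and not one gene with another. The P0 replicates differed most: among 4559 well-covered genes, the log2 ratio between replicates had an SD of 0.53 at P0 and of 0.13 to 0.22 at the other stages, and P0 replicate 1 was the shallowest library. All 7 markers fixed for neocortex, Emx1 among them, were detected in every library, with summed levels of 458 to 823 CPM. A gene was called higher or lower when limma-voom gave an adjusted p under 0.05 (Benjamini-Hochberg over all genes tested) and a fold of at least 1.25.

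Promoter sequences were looked up because CUX1 was first known as a protein that displaces others from the CCAAT box, POU factors bind the octamer ATGCAAAT, and CUX proteins also bind ATCGAT. RefSeq promoters (build GRCm38.p6) were held for 7 of the 8 genes, Pou3f1 being the gene without one, and the 250 bases before each of 11 start sites were searched on both strands. CCAAT or its reverse complement ATTGG lay before 5 of these starts, in 4 genes, and in 33.8% of all 32851 RefSeq windows of that length. Stretches around the matches are shown for one start of each of these 4 genes, and one around an ATCGAT match for Cux2, with the matched letters in capitals and the strand that of the gene. None of the capitals of one motif overlapped the other motif.
Pou3f3, chr1:42695596-42695700, plus strand: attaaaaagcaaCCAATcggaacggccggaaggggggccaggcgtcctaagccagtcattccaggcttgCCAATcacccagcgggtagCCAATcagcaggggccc
Pou3f2, chr4:22488516-22488607, minus strand: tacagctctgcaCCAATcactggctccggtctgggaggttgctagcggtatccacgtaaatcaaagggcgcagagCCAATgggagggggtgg
Mef2c, chr13:83503971-83504013, plus strand: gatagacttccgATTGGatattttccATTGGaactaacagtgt
Rorb, chr19:19111268-19111296, minus strand: tgcgggacgctgATTGGccatggtgctga
Cux2, chr5:122047880-122047909, minus strand: gggctcatctgaATCGATataaagaggagg
Pou3f3 held 3 CCAAT boxes, the nearest 79 bases before the start, Pou3f2 held 2, and Mef2c held 2 before the start shown and 1 more before its second start. ATCGAT, found in 0.728% of all windows, lay before 1 of the 11 member starts, 66 bases upstream of the second Cux2 start. The octamer, found in 1.6% of all windows, lay before 0 of the 11. A match is a description of the letters, not a bound site.

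Both CUX genes were translated throughout, but their courses differed. In replicates 1 and 2 in turn, Cux1 (ENSMUSG00000029705) stood at 72.5 and 71.5 CPM (E12.5), 63.6 and 72.6 (E14), 81.2 and 89.9 (E15.5), 88.6 and 84.8 (E17), and 67.8 and 87.7 (P0). Its highest and lowest libraries were less than 1.5-fold apart, and the P0 libraries spanned the levels of most earlier ones. The moderated F test over the 5 stages gave an adjusted p of 0.156 for Cux1. Cux2 (ENSMUSG00000042589) stood at 3.52 and 4.11 CPM (E12.5), 6.76 and 5.67 (E14), 18.0 and 19.6 (E15.5), 21.3 and 22.0 (E17), and 27.3 and 21.3 (P0). All 6 libraries from E15.5 on lay above all 4 earlier ones. From E14 to E15.5 Cux2 rose 3.04-fold (log2 1.61 ± 0.16 SE, n = 2 libraries a stage, limma-voom adjusted p = 0.000216), and its log2 fold change from E12.5 to P0 was 2.62 ± 0.17.

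All 3 POU3F factors rose between E14 and E15.5, and Pou3f2 then fell between E17 and P0. Pou3f1 (ENSMUSG00000090125) stood at 2.36 and 3.36 CPM (E12.5), 7.11 and 5.67 (E14), 20.5 and 19.5 (E15.5), 23.8 and 22.4 (E17), and 43.6 and 26.9 (P0). Of its steps between neighbouring stages, limma-voom over all libraries called only that from E14 to E15.5. The P0 libraries were the highest and the farthest apart. Pou3f1 rose 3.17-fold from E14 to E15.5 (log2 1.67 ± 0.24, adjusted p = 0.00125) and 11.4-fold from E12.5 to P0 (log2 3.51 ± 0.29, adjusted p = 1.66e-05). Pou3f2 (ENSMUSG00000095139) stood at 10.1 and 11.7 CPM (E12.5), 18.7 and 17.1 (E14), 53.0 and 49.8 (E15.5), 48.1 and 47.8 (E17), and 36.4 and 31.6 (P0). This gene was highest at E15.5 and lower in both P0 libraries than in all 4 libraries of E15.5 and E17. It rose 2.87-fold from E14 to E15.5 (log2 1.52 ± 0.11, adjusted p = 9.79e-05) and then fell by 0.51 ± 0.11 on the log2 scale from E17 to P0 (adjusted p = 0.0174). That fall was not called without E17 replicate 1 (adjusted p = 0.112), without E17 replicate 2 (0.0810), with sample quality weights (0.126) or with the 2 stages fitted alone (0.161), against a range of 0.00421 to 0.161 over all alternatives.

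Pou3f3 (ENSMUSG00000045515) stood at 26.0 and 33.3 CPM (E12.5), 37.9 and 33.3 (E14), 63.3 and 63.9 (E15.5), 60.2 and 62.9 (E17), and 72.0 and 39.4 (P0). The P0 libraries lay on either side of both the E15.5 and the E17 libraries, so the direction of the last step differed by replicate. Pou3f3 rose 1.79-fold from E14 to E15.5 (log2 0.84 ± 0.25, adjusted p = 0.0277), the smallest of the called rises among the members at that step. This rise was not called when any 1 of the 4 libraries of E14 and E15.5 was left out (adjusted p of 0.0789 to 0.151, in a range of 0.000375 to 0.151 over all alternatives). The 3 POU genes have no introns and share a conserved POU domain, reads that match several places were kept in the alignment, and how such reads were divided between genes in the deposited table is not known here, so a part of their counts could belong to a relative. No other gene had counts within 5% of those of a member in every library.

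Rorb (ENSMUSG00000036192), the receptor of layer IV, changed in 1 large step. It stood at 3.46 and 3.44 CPM (E12.5), 5.74 and 4.40 (E14), 22.0 and 20.7 (E15.5), 21.4 and 21.8 (E17), and 24.8 and 29.5 (P0). The libraries of E15.5 and E17 overlapped, and the lowest of the later 6 libraries was far above the highest of the first 4. The rise from E14 to E15.5 was 4.27-fold (log2 2.10 ± 0.15, adjusted p = 7.63e-05), and the log2 fold change from E15.5 to E17 was 0.02, with a 95% interval of -0.28 to 0.32. From E12.5 to P0 Rorb rose 7.89-fold (log2 2.98 ± 0.16, adjusted p = 2.19e-06).

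Mef2c (ENSMUSG00000005583) had the largest rise of the 8 genes. It stood at 124 and 102 CPM (E12.5), 149.8 and 150.1 (E14), 853 and 909 (E15.5), 1240 and 1360 (E17), and 2336 and 3215 (P0). Of its steps between neighbouring stages, limma-voom over all libraries called those from E14 to E15.5 and from E17 to P0. Its share of all footprints went from 0.00822% and 0.0105% in the E12.5 libraries to 0.285% and 0.378% in those of P0. Mef2c rose 5.87-fold from E14 to E15.5 (log2 2.55 ± 0.16, adjusted p = 6.04e-05), then 2.10-fold from E17 to P0 (log2 1.07 ± 0.16, adjusted p = 0.00412), and 24.4-fold over the whole course (log2 4.61 ± 0.16, adjusted p = 4.84e-07). The step from E17 to P0 was not called with these 2 stages fitted alone (adjusted p = 0.0891, range over alternatives 9.75e-10 to 0.0891).

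Mdga1 (ENSMUSG00000043557), the adhesion protein, had few counts and showed no steady direction over the stages. It stood at 2.86 and 3.89 CPM (E12.5), 4.59 and 4.53 (E14), 3.46 and 3.55 (E15.5), 5.08 and 5.22 (E17), and 4.68 and 2.96 (P0), from 43 to 160 counts a library. The 2 libraries of E14 lay above those of E15.5, and the 2 of E17 above all others. None of the 4 steps between neighbouring stages was called by limma-voom over all libraries, and the F test gave an adjusted p of 0.0760. Only E17 against E12.5 was called, at 1.51-fold (log2 0.59 ± 0.21, adjusted p = 0.0371). That call was lost under 9 of the alternatives, among them DESeq2 (adjusted p = 0.128) and leaving out E12.5 replicate 1 (0.201), in a range of 0.00308 to 0.201.

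**Figure D1:**
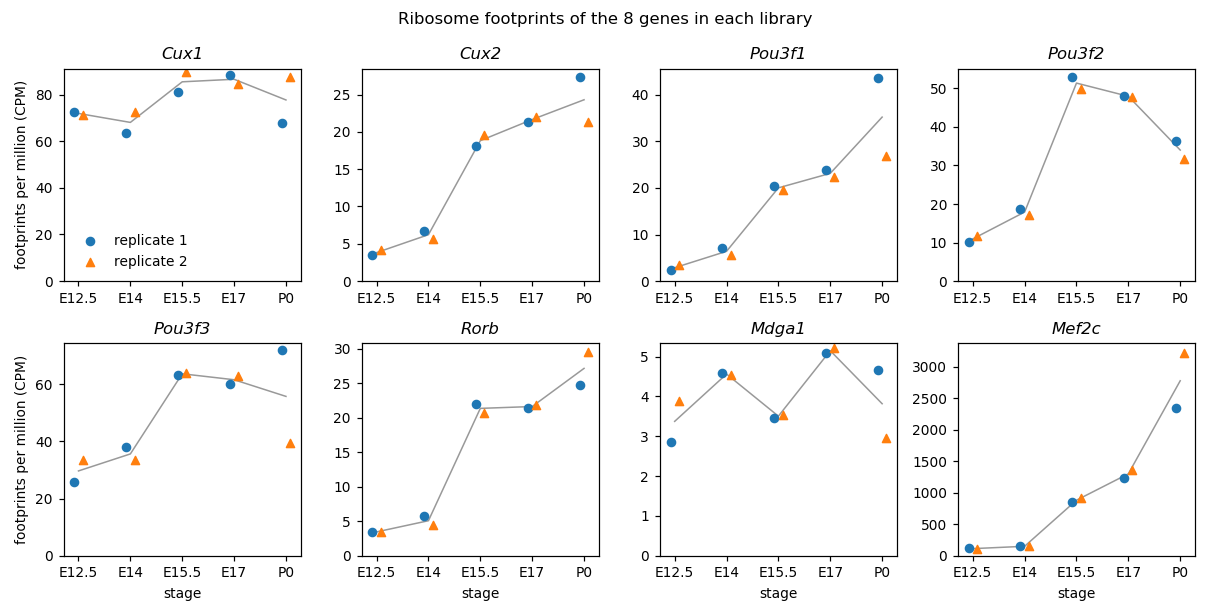
Each panel plots the footprints of 1 gene in TMM-scaled CPM (vertical axis from 0, its own scale per gene) at the 5 stages, with a point for each library and a line through the mean of the 2 libraries. Cux2, Pou3f1, Pou3f2, Pou3f3, Rorb and Mef2c are higher in both E15.5 libraries than in both E14 libraries by 1.79-fold to 5.87-fold, and the P0 points of Pou3f3 lie apart at 72.0 and 39.4 CPM.

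The question of when these genes change was put to the 4 steps between neighbouring stages. Between E12.5 and E14 none of the 8 was called, with 0.497% of all genes called higher and 0.141% called lower. The members' log2 fold changes ran from -0.08 for Cux1 to 1.12 for Pou3f1, with a median of 0.47 beside 0.00 over all genes tested. In limma-voom 5 of the 8 had an unadjusted p under 0.05 at this step, as did 15.8% of all genes. Of the 8, edgeR called 0 and DESeq2 called 2 higher, where DESeq2 called 2.2% of all genes higher and 0.756% lower. Without both P0 libraries, an analysis chosen after the data were seen, 4 genes were called higher: Cux2 (log2 0.67, adjusted p = 0.0321), Pou3f1 (1.10, 0.0176), Pou3f2 (0.70, 0.0127) and Mef2c (0.42, 0.0467). In that fit 4.66% of all genes were called higher and 3.47% lower, and over all alternatives the adjusted p values of these 4 genes ran from 0.00142 to 0.593.

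Between E14 and E15.5, 6 of the 8 genes rose, against 16.5% of all genes called higher and 19.6% called lower. The 6 were Mef2c, Rorb, Pou3f1, Cux2, Pou3f2 and Pou3f3. The members' median log2 fold change was 1.56, where all genes had a median of -0.01 and quartiles of -0.46 and 0.38. Cux1 had a log2 fold change of 0.33 ± 0.13 (adjusted p = 0.0914) and Mdga1 one of -0.38 ± 0.20 (adjusted p = 0.176). In the fit without both P0 libraries 7 genes were called higher, now with Cux1 (log2 0.32, adjusted p = 0.0139, range over alternatives 0.00585 to 0.369), and Mdga1 was called lower (log2 -0.38, adjusted p = 0.0497, range 0.0322 to 0.753), beside 23.3% and 24.9% of all genes. Scaled to total counts alone, the median of all genes shifted by 0.29 on the log2 scale and 72.7% of called genes were higher, against 45.6% with TMM. Then 7 members were called higher, beside 32.7% of all genes called higher and 12.3% lower.

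Several marker lists also moved at this step, where 16.5% of all genes were called higher and 19.6% lower. The 6 neuron markers, Tubb3 and Dcx among them, were all called higher, and their summed level went from 2793 and 2867 CPM in the E14 libraries to 6041 and 6275 in those of E15.5, with none at 0. Of the 9 progenitor markers 7 were called lower and 1 higher, although their summed level stayed between 2160 and 2317 CPM over both stages. The gene called higher was Fabp7 (1056 to 1628 CPM), which held the largest part of that sum, while Vim went from 688 to 355 CPM. Of the 11 markers of interneurons and the ganglionic eminence, 7 were called higher, and their sum went from 79.2–87.3 to 216–222 CPM. All 8 meningeal markers were called lower, from 67.0–75.7 to 2.74–3.07 CPM in sum, as were all 6 choroid plexus markers tested, from 1155–1162 to 11.4–13.8 CPM for the list of 7, and all 8 endothelial markers. Of the 9 blood markers 6 were called lower and 0 higher, with a sum of 10037–11051 CPM at E14 and 6903–7419 CPM at E15.5. Of the 8 microglial markers 5 were called lower and 0 higher. None of these lists had a marker at 0 in both libraries of E14 or of E15.5. The part of these shifts in the members' rise was not tested.

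**Figure D2:**
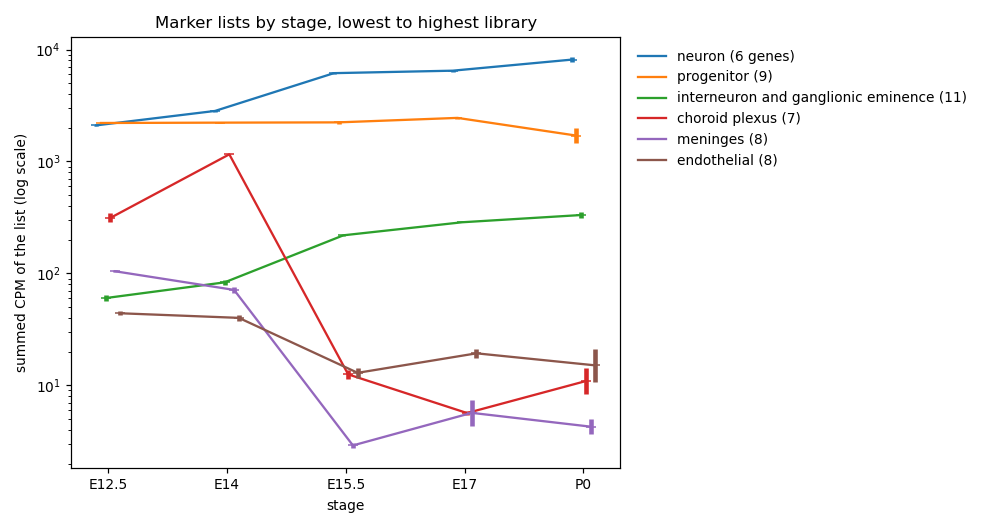
The vertical axis is the summed level of each marker list in TMM-scaled CPM on a log scale, by stage, with a bar from the lower to the higher of the 2 libraries and a line through their geometric mean. Between E14 and E15.5 the neuron sum climbs from 2793–2867 to 6041–6275 CPM, while the meningeal sum drops from 67.0–75.7 to 2.74–3.07 and the choroid plexus sum from 1155–1162 to 11.4–13.8.

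Between E15.5 and E17 none of the 8 genes was called in limma-voom over all libraries, beside 5.61% of all genes called higher and 3.43% lower. Mef2c had a log2 fold change of 0.56 ± 0.16 (adjusted p = 0.0653) and Mdga1 one of 0.55 ± 0.20 (adjusted p = 0.120), and the other 6 lay between -0.10 and 0.21. At an unadjusted p under 0.05 there were 2 of the 8 genes, a share close to the 25.7% of all genes, and DESeq2 called 1, Mef2c, where it called 4.53% of all genes higher and 3.12% lower. In the fit without both P0 libraries, with 13.4% of all genes called higher and 8.23% lower, Mef2c (log2 0.58, adjusted p = 0.00662, range over alternatives 0.00140 to 0.315) and Mdga1 (0.57, 0.0200, range 0.00562 to 0.429) were called higher.

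Between E17 and P0 Mef2c rose and Pou3f2 fell, 1 gene each way, beside 9.46% of all genes called higher and 11.1% lower. The members' median log2 fold change was -0.01. Pou3f1 (log2 0.52 ± 0.22, adjusted p = 0.127) and Rorb (0.34 ± 0.13, adjusted p = 0.102) had values above 0 and Mdga1 one below (-0.61 ± 0.20, adjusted p = 0.0687). These values rested on P0 libraries that differed from each other: without P0 replicate 2 Pou3f1 was called higher (log2 0.94, adjusted p = 0.00362, range over alternatives 0.00362 to 0.330), in a fit that called 17.5% of all genes higher and 16.2% lower. Without P0 replicate 1, 5 genes were called: Rorb and Mef2c higher, and Pou3f2, Pou3f3 (log2 -0.64, adjusted p = 0.0103, range 0.0103 to 0.838) and Mdga1 (-0.80, 0.00851, range 0.00851 to 0.766) lower. That fit called 16.1% of all genes higher and 15.9% lower, more than the fit of all libraries.

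**Figure D3:**
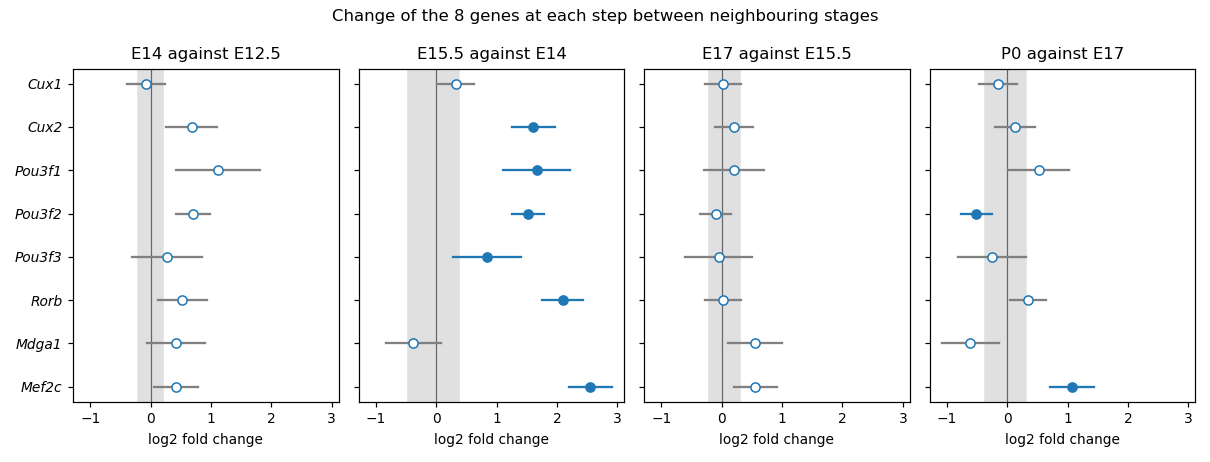
Each panel is a step between neighbouring stages and plots the log2 fold change (later minus earlier stage) of each gene with its 95% interval from limma-voom. Filled points were called, open points were not, and the grey band runs from the lower to the upper quartile of all 13484 genes tested. Filled points appear for 6 genes at E15.5 against E14, from 0.84 for Pou3f3 to 2.55 for Mef2c, and for Pou3f2 (-0.51) and Mef2c (1.07) at P0 against E17.

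Whether the step from E14 to E15.5 was larger than each other step was tested as a difference of the 2 log2 fold changes in the same fit, a test chosen after the data were seen. It exceeded the step from E12.5 to E14 for 2 genes, Mef2c (difference 2.13 ± 0.27, adjusted p = 0.00974) and Rorb (1.57 ± 0.28, adjusted p = 0.0279), beside 0.912% of all genes. This count was 0 when any 1 library of E14 or E15.5 was left out. It exceeded the step from E15.5 to E17 for 4 genes, Cux2, Pou3f2, Rorb and Mef2c, with differences of 1.40 to 2.08 and adjusted p values of 0.00422 to 0.0161, beside 3.72% of all genes. This count was 0 without E15.5 replicate 1 or without E15.5 replicate 2. It exceeded the step from E17 to P0 for 5 genes, the same 4 and Pou3f1 (difference 1.15 ± 0.33, adjusted p = 0.0474), beside 9.61% of all genes. This count was 4 with the replicate number as a block and 4 to 7 over all alternatives. For Cux1, Pou3f3 and Mdga1 none of the 3 differences passed, and for Mdga1 2 of the 3 were below 0 (-0.80 and -0.93).

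Against E12.5 as a common start, 6 of the 8 genes were higher at E15.5 (all genes: 22.2% higher, 24% lower), 7 at E17 (26.9% and 27.8%) and 6 at P0 (30.1% and 32%). These 3 comparisons share the E12.5 libraries and are not independent. Cux2, Pou3f1, Pou3f2, Pou3f3, Rorb and Mef2c were called in each, and Mdga1 was called at E17. For Cux1 the log2 fold change was 0.25 at E15.5, 0.27 at E17 and 0.12 (P0), with a 95% interval of -0.20 to 0.43 at P0, and it was called higher in all 3 where libraries were scaled to total counts alone. Under that scaling the median of all genes shifted by 0.34, 0.40 and 0.51, and the share of called genes that were higher was 72.3%, 73.3% and 72.0% against 48.1%, 49.2% and 48.5% with TMM. Genes with a Hist symbol, which encode histones, took 34.0% and 38.5% of counts in the E12.5 libraries and 9.83% and 6.32% in those of P0. Pou3f3 lost its call against E12.5 at all 3 stages without E12.5 replicate 1 (adjusted p = 0.0504, 0.0509 and 0.124, within ranges that reached 9.88e-05, 8.80e-05 and 0.000138 over the alternatives). The F test over the 5 stages passed for 6 of the 8 genes, beside 63.8% of all genes tested.

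The ratios of counts between relatives changed over the stages, in a table where 63.8% of all genes tested passed the F test. Several of these ratios share a gene, and no share over other pairs of genes was computed. Ratios of counts between 2 genes of the same library need no scaling between libraries, and their change over stages does not depend on gene length. For 8 ratios, the variation between stages was set against all 945 divisions of the 10 libraries into 5 pairs in an exact permutation test, where 0.00106 is the smallest p possible. Cux2 had 0.0486 and 0.0575 counts for each count of Cux1 at E12.5 and 0.402 and 0.243 at P0 (exact permutation p = 0.00423, 0.00847 adjusted over the 8 ratios). In limma-voom over all libraries Cux1 itself was not called at any of the 4 steps.

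The ratio of Pou3f1 to Pou3f2 was 0.234 and 0.287 (E12.5), 0.381 and 0.331 (E14), 0.387 and 0.393 (E15.5), 0.495 and 0.470 (E17), and 1.20 and 0.850 (P0), with an exact permutation p of 0.00106 (0.00423 adjusted). The stages followed each other without overlap. The ratio of Pou3f1 to Pou3f3 went from 0.0911 and 0.101 at E12.5 to 0.606 and 0.681 (P0), and here the P0 libraries were closer to each other than either gene's own P0 levels (exact permutation p = 0.00106, 0.00423 adjusted). The ratio of Pou3f2 to Pou3f3 climbed from 0.390 and 0.352 at E12.5 to 0.837 and 0.779 at E15.5 and stood at 0.506 and 0.801 at P0 (exact permutation p = 0.0296, 0.0339 adjusted).

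Mef2c also moved away from its paralogues Mef2a and Mef2d, while its ratio to Mef2b was not tested. It had 5.29 and 4.22 counts for each count of Mef2a at E12.5 and 39.8 and 39.6 at P0 (exact permutation p = 0.00212, 0.00564 adjusted), and 9.10 and 6.20 for each count of Mef2d at E12.5 and 43.5 and 84.9 at P0 (exact permutation p = 0.0222, 0.0310 adjusted). The ratio of Mdga1 to Mdga2, the other gene of its family, fell: Mdga1 had 3.06 and 4.73 counts for each of Mdga2 at E12.5, 6.93 and 4.21 (E14), 0.827 and 0.977 (E15.5), 0.889 and 0.939 (E17), and 0.843 and 0.685 (P0), with an exact permutation p of 0.0233 (0.0310 adjusted). Counts are not divided by gene length, so this ratio does not say which of these genes stood higher. All 4 libraries up to E14 lay above 3 and all 6 later ones below 1. In those first 4 libraries Mdga2 had only 17, 22, 15 and 34 counts. Between E14 and E15.5 the mean of Mdga2 went from 0.870 to 3.91 CPM and that of Mdga1 from 4.56 to 3.50 CPM. Rorb had 9 and 18.4 counts for each count of Rora at E12.5, 81.1 and 44.5 (E15.5), and 15.2 and 13.7 at P0 (exact permutation p = 0.0402, also after adjustment), with 5 to 18 counts of Rora in all libraries but P0 replicate 2, which had 90. Without P0 the p for Rorb to Rora and for Mdga1 to Mdga2 was 0.0571 each, in a test whose smallest p is 0.00952, and the other 6 stayed at 0.00952 to 0.0286.

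**Figure D4:**
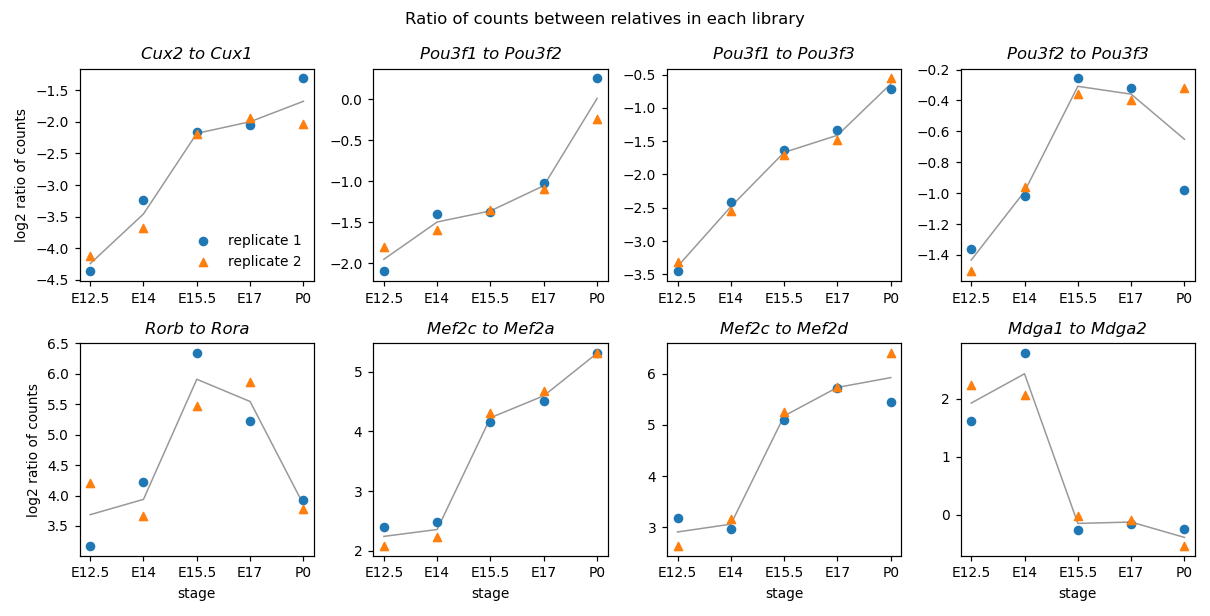
Each panel plots the log2 ratio of the counts of 2 related genes in each library at the 5 stages, with a point per library and a line through the mean. Pou3f1 to Pou3f2 passes from -2.10 and -1.80 at E12.5 to 0.26 and -0.23 at P0, Mdga1 to Mdga2 drops from 2.79 and 2.07 at E14 to -0.27 and -0.03 at E15.5, and Rorb to Rora returns at P0 to 3.93 and 3.78.

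The families of the members were followed as a list of 16 relatives, of which 11 were tested. The genes not tested included Pou4f1 and also Onecut1, Onecut2 and Onecut3, which are related to CUX proteins by their cut domain, and these 4 had at most 11 counts in a library. From E12.5 to P0, 7 of the 11 rose and 2 fell, beside 30.1% of all genes called higher and 32% lower. Among MEF2 genes all 3 relatives rose: Mef2a (23.7 to 70.0 CPM, log2 1.56 ± 0.16), Mef2d (15.0 to 45.8 CPM, log2 1.56 ± 0.18) and Mef2b (0.628 to 7.91 CPM, log2 3.79 ± 0.69). The Mef2c value of 4.61 was above each. Mef2b had only 14 and 13 counts in the E12.5 libraries, and its difference from Mef2c was not tested. Among POU genes Pou6f1 rose (log2 1.47 ± 0.16), Pou2f1, a widely expressed factor, fell by 1.18 ± 0.21, and Pou3f4, the fourth gene of the class and itself without introns, had a log2 fold change of 0.08 ± 0.24 (adjusted p = 0.782), while Pou2f2 was not called (1.00 ± 0.52, adjusted p = 0.122). Rora, a receptor related to Rorb, rose (log2 2.91 ± 0.46), with its called step between E17 and P0 (2.06 ± 0.32, adjusted p = 0.00500). Mdga2 rose (log2 2.40 ± 0.27), and so did Satb1 (log2 2.93 ± 0.15), a chromatin organiser.

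Other genes described for upper-layer and callosal neurons formed a list of 17, all tested. From E12.5 to P0 11 of the 17 rose and 5 fell, beside 30.1% of all genes called higher and 32% lower. The list's median log2 fold change was 0.80, beside a median of 2.12 for the 8 members and -0.01 for all genes. Lmo4, a LIM domain factor, rose from 107 ± 11.2 to 836 ± 167 CPM (SD, n = 2; log2 2.96 ± 0.15 SE). Inhba, a subunit of activin, had 4 and 0 counts in the E12.5 libraries and 91 and 233 in those of P0. Hspb3, a small heat shock protein, had 4 and 1 counts at E12.5 and 39 and 235 (P0), and both genes were called higher. Lhx2, a LIM homeodomain factor that progenitors use as well, fell by 2.01 ± 0.14 on the log2 scale, from 143 ± 20.0 to 36.0 ± 5.82 CPM, and Nectin3, an adhesion protein, fell by 1.35 ± 0.17. At the step from E14 to E15.5 this list split almost evenly, with 6 genes higher and 5 lower and a median log2 fold change of 0.13. Of all genes, 16.5% were called higher and 19.6% lower at that step.

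Genes of the deep layers formed a list of 10, all tested. Of these, 5 were called higher and 0 lower between E14 and E15.5 (median log2 fold change 0.50), beside 16.5% and 19.6% of all genes. Between E12.5 and P0, 6 were called higher and 1 lower (median 0.85), beside 30.1% and 32% of all genes. Ldb2 rose from 10.6 ± 0.337 to 163 ± 34.6 CPM (log2 3.94 ± 0.17) and Crym, a thyroid hormone binding protein, rose from 5.51 ± 0.247 to 21.6 ± 2.56 CPM (log2 1.93 ± 0.20). Sox5, a factor of early born corticofugal neurons, fell by 0.54 ± 0.11 on the log2 scale.

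Genes that act with MEF2C and MDGA1 made up a pair of further lists. Of 9 regulators of MEF2 proteins (class IIa histone deacetylases, which repress them, and calcineurin subunits and MAP kinases, which activate them), 6 rose and 1 fell from E12.5 to P0, with a median log2 fold change of 0.86. Over that span 30.1% of all genes were called higher and 32% lower. Ppp3ca, a calcineurin catalytic subunit, rose from 34.7 ± 2.13 to 96.9 ± 22.3 CPM (log2 1.48 ± 0.16). Hdac9 rose by 1.45 ± 0.16 on the log2 scale, and Mapk14, a p38 kinase gene, fell by 1.03 ± 0.11. Of the 6 neurexin and neuroligin genes, the synaptic pair that MDGA1 acts on, 5 rose over the same span and the last, Nlgn2, was not called (log2 0.61, adjusted p = 0.0800). Nrxn2 rose from 9.09 ± 1.27 to 43.8 ± 17.1 CPM (log2 2.16 ± 0.25) and Nrxn3 rose from 1.98 ± 0.473 to 8.79 ± 0.487 CPM (log2 2.10 ± 0.21), while Mdga1 itself had 3.37 ± 0.728 CPM at E12.5 and 3.82 ± 1.21 at P0. All 6 neurexin and neuroligin genes were called higher at E17 than at E12.5, beside 26.9% of all genes called higher and 27.8% lower. Over the same span all 6 neuron markers were called higher and 7 of the 9 progenitor markers lower, with 2 higher. The part of these marker shifts in the lists' counts was not tested.

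**Figure D5:**
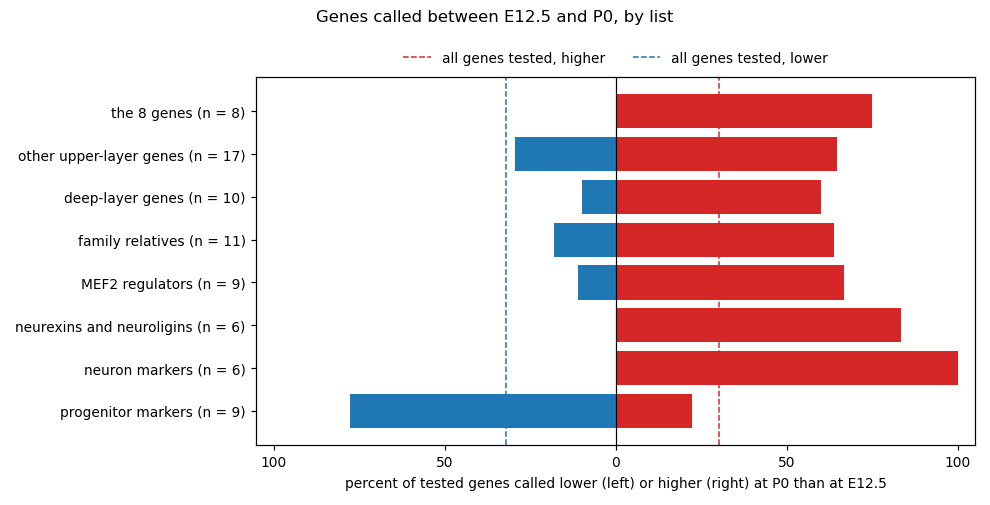
Bars give the percent of tested genes of each list called higher (right) or lower (left) at P0 than at E12.5, and dashed lines give the same over all 13484 genes tested (30.1% higher, 32% lower). Of the 8 genes 6 were higher and 0 lower, of the other upper-layer genes 11 of 17 higher and 5 lower, and of the progenitor markers 2 of 9 higher and 7 lower.

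The courses of the 8 genes were compared with those of 9207 tested genes whose mean count was 100 or more, by Pearson's r of log2(CPM + 0.5) over the 10 libraries. These correlations describe shared stage differences, since all genes come from the same libraries, and carry no test. Cux2, Pou3f1, Rorb and Mef2c were alike among themselves, with r of 0.95 to 0.99, Pou3f2 had r of 0.83 to 0.94 with these 4 and Pou3f3 0.76 to 0.90, while Cux1 had r of 0.43 to 0.66 with these 6 and Mdga1 between -0.15 and 0.44 with all others. Outside the 8, the genes most like Cux2 were Ralgps1 (r of 0.997), Tub (0.996) and Atat1 (0.996), which encodes a tubulin acetyltransferase. Those most like Pou3f1 were Kctd12 (0.998), Nova2 (0.998), a neuronal splicing regulator, and Dusp8 (0.997). Pou3f2 was closest to Mvb12b (0.996), Mark1 (0.99) and Med13l (0.99), and Pou3f3 to Pafah1b3 (0.99), Nans (0.99) and Ehd1 (0.97). Rorb was closest to Aak1 (0.998), Amer3 (0.997) and Runx1t1 (0.996). Mef2c was closest to Satb1, Map1b, a microtubule protein of growing axons, and Rnf14 (each 0.997). For Cux1 the closest were Rnf19a (0.98), Rb1cc1 (0.97) and Ppp1cb (0.96), and for Mdga1 Paqr8 (0.91), Tapt1 (0.91) and Srebf2 (0.88). Map1b stood at 108 CPM at E12.5 and 288 (P0), and Satb1 at 13.6 and 103, so genes of like course differed widely in the size of their change.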

How the data were processed

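Mouse neocortex was profiled by Ribo-seq in 10 libraries. The authors deposited whole-number footprint counts per gene that were not normalized. The study's methods describe adapter trimming, collapse of duplicate reads, and removal of tRNA, rRNA and snoRNA reads. They describe alignment of the rest with STAR, with multi-mapping reads kept. The submitters' processing notes give STAR version 2.7.0, while the methods name an earlier version. For quantification, DeepShape-prime estimated isoforms and tximport gave gene-level counts, per the methods. Whether the deposited whole-number table comes from these steps, and so how multi-mapping reads were divided between genes in it, is not stated. The members and gene lists were chosen with earlier results of these data known. Genes named outside the 8 were all tested relatives, the 2 largest called rises and falls of each list from E12.5 to P0, and the 3 most alike genes, and the values of some of these genes are not reported here. Nlgn2, Emx1, Tubb3, Dcx, Fabp7 and Vim were added as examples after their values were seen, and Lmo4 also falls outside this rule.

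Genes with at least 32 footprints in a stage, summed over its 2 libraries, were tested by limma-voom (limma 3.58.1, R 4.3.3) on all 10 libraries with TMM factors (edgeR 4.0.16). The study names voom and a minimum of 32 footprints for coding sequences, while TMM and summing the minimum per gene over both libraries were choices made here. Tests were two-sided. SE and 95% intervals come from this fit. P-values measure the spread between pools, which the labels number but do not otherwise tell apart. Alternatives were other scalings, no filter, edgeR's quasi-likelihood test, DESeq2 1.42.0, sample quality weights, a replicate block, each library left out, the compared stages alone and no P0 libraries. Scripts were tested on simulated data.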

Additional observations from a re-analysis of the deposited data

How the results depend on the processing

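For the 56 log2 fold changes of the 8 genes, 1019 of 1104 recomputed values kept their direction and their side of the threshold, 22 lost a call, 46 gained one and 17 changed sign, in 10 results. The cause of these changes was not tested. The counts of called genes for E15.5 against E14 (5 to 8 over the alternatives), for the 3 comparisons with E12.5, for the F test and for the 8 ratios stayed within 1.5 times their value. For E14 against E12.5, none of the 8 was called at first and 1 was with total counts only, 2 with DESeq2, 3 with sample quality weights and 4 without both P0 libraries, and leaving out single libraries gave 0 to 4. For E17 against E15.5, none was called at first and 1 was with total counts only, 1 with DESeq2, 2 with sample quality weights, 2 with these stages alone and 2 without both P0 libraries, and leaving out single libraries gave 0 to 2. For P0 against E17, 2 genes were called, 1 with sample quality weights and 0 with these stages alone, where limma-voom called 0 of all genes, and leaving out single libraries gave 1 to 5. The count of genes whose step from E14 to E15.5 exceeded that from E12.5 to E14 was 2, against 4 with sample quality weights, 1 with the replicate block and 0 to 4 without single libraries, and the count exceeding the step from E15.5 to E17 was 4, against 0 to 6 without single libraries. Numbers of all genes called also moved: 86 for E14 against E12.5 (0 to 1067 over the alternatives), 4868 for E15.5 against E14 (2739 to 6502), 1219 for E17 against E15.5 (0 to 3717) and 2767 for P0 against E17 (0 to 4419).

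Signs changed for log2 fold changes that were -0.25 to 0.13 at first, the farthest from 0 being Pou3f3 at P0 against E17 (-0.25). Leaving out single libraries, Cux1 ranged from -0.18 to 0.015 at E14 against E12.5, from -0.054 to 0.087 at E17 against E15.5, from -0.32 to 0.019 at P0 against E17 and from -0.051 to 0.29 at P0 against E12.5. Cux2 ranged from -0.021 to 0.37 at P0 against E17, Pou3f3 from -0.64 to 0.26 there, Rorb from -0.032 to 0.062 at E17 against E15.5 and Mdga1 from -0.15 to 0.28 at E15.5 against E12.5. Pou3f3 at E17 against E15.5 was 0.013 with total counts only. Mdga1 at P0 against E12.5, -0.02 at first, was 0.50 with total counts only, 0.091 with edgeR, 0.13 with DESeq2, 0.076 with sample quality weights, 0.029 with the 2 stages alone and -0.21 to 0.50 without single libraries.

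Replicate numbers do not mark shared litters in the labels, and of 10 pairs of stages 5 had correlated deviations of same-numbered libraries above 0.1, within -0.64 to 0.43, so the numbers were not taken to pair the samples. With the replicate block, the E17 against E12.5 value of Mdga1 was 0.60 with an adjusted p of 0.0567 in limma-voom, leaving 6 of the 8 called there in place of 7, E14 against E12.5 gave 4 calls over all genes in place of 86, and the count of genes whose step from E14 to E15.5 exceeded that from E17 to P0 was 4 in place of 5. Beside these and the step difference from E12.5 to E14 above, no other count of called genes among the 8, no other call of their log2 fold changes and no call of the 8 ratios changed.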
